A study of Mus musculus with 6 samples.

Results

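The Ms4a genes encode small tetraspan membrane proteins of immune cells, and 8 of them were followed here in whole mouse lung: Ms4a7, Ms4a6d, Ms4a6c, Ms4a6b, Ms4a4c, Ms4a4b, Ms4a1 and Ms4a2. Members were found by gene symbol in the platform annotation, taking each probe set whose only symbol was a member name, which gave 17 of the 45037 probe sets on the array, for 8 of its 18193 genes with a probe set of their own. All 8 symbols matched a RefSeq gene of the same gene ID. The members were chosen from a family whose intensities in the 8 week, 1 week and control pools were already known, so differences between groups are given as descriptions. The counts of members that passed a fit over all probe sets stand beside the share of all that passed, and they support nothing about the members. Sex of the pool took no part in the choice and was tested.

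The lungs came from 3 groups of 2 pools, 1 female and 1 male, with 3 mice in each pool and 18 mice in all. In the first group an inducible SM22-dnBMPR2 transgene had been activated for 8 weeks, and in the second for 1 week. The transgene encodes a dominant-negative type 2 receptor for bone morphogenetic proteins, and the SM22 promoter directs it to smooth muscle through the transactivator rtTA. The third group was the controls, with the transactivator alone according to the series description. The male control was labelled SM22-rtTA only, while the label of the female control gave the FVB/N strain and no transgene. The series description also states that the mice other than controls had high pressure in the right ventricle when killed. The labels gave no ages and an extraction method for the 4 transgenic pools alone, so whether controls were handled alike cannot be told apart from the transgene. The same control pools served both durations. Since no group held 2 pools of the same sex, the spread within a group mixed pool and sex.

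MS4A proteins cross the membrane several times and sit beside other receptors, where they shape signalling and trafficking. In mice each member is typical of certain blood cell lineages. Ms4a7 and Ms4a6d are macrophage genes, Ms4a6c and Ms4a4c are found in monocytes and other myeloid cells, and Ms4a4b and Ms4a6b are found in T cells. Ms4a1 is CD20, the B cell surface protein, and Ms4a2 is the beta chain of the high-affinity IgE receptor of mast cells and basophils. In whole lung, fewer cells of a type and less RNA per cell cannot be told apart.

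Intensities were quantile normalised, raised to a floor of 15.46 (log2 3.95) where lower, and put on the log2 scale, so that a value at the floor is an upper limit. Median deposited intensity was 50.49 and 52.92 in the 8 week pools, 60.22 and 57.1 in the 1 week pools, and 63.41 and 61.43 in the control pools. Bmpr2 itself stood at −0.93, −0.26 and 0.01 on its 3 probe sets at 8 weeks against control, and whether any of them reads the transgene was not tested. Xist and the Y-linked gene Eif2s3y, on its brightest probe set, followed the labelled sex on all 6 arrays. Xist was lower in the female 8 week pool (8.90, 7.22 and 9.76 on its probe sets) than in the female control (11.22, 8.45 and 11.05). The cause of this was not tested. The lung genes Sftpc, Sftpb, Sftpa1, Scgb1a1, Ager, Cldn18 and Pecam1 were all detected above the filter (7 of 7).

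All 8 members lie in a gene cluster on mouse chromosome 19. In the RefSeq order of GRCm38.p6, Ms4a1 comes first, followed by Ms4a7, Ms4a4c, Ms4a4b, Ms4a6c, Ms4a6b, Ms4a6d and Ms4a2. The stretch from the first to the last of them holds 18 genes, 12 with an Ms4a name. Promoter windows, from 250 bases before to 50 bases after the start, were given by RefSeq for 6 of the 8 members. Among the 15 pairs of these windows, 2 pairs shared long stretches. They are shown because the genes of each pair are neighbours with closely related starts and yet differed in their values below. The capitals mark the longest identical run of each pair, 20 bases in the first pair and 48 in the second.
Ms4a4c, chr19:11407411-11407710, plus strand: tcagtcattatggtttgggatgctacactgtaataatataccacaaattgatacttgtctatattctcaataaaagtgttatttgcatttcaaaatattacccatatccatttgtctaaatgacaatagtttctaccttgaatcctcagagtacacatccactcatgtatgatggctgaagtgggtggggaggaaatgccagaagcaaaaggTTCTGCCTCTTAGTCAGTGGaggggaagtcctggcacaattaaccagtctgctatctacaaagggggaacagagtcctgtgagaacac
Ms4a4b, chr19:11443308-11443607, plus strand: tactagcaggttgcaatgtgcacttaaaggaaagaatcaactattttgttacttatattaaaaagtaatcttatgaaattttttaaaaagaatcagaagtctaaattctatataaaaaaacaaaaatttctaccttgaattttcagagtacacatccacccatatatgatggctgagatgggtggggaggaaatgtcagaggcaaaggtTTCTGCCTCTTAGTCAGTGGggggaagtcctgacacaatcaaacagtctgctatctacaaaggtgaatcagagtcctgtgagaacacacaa
Ms4a6c, chr19:11469118-11469417, plus strand: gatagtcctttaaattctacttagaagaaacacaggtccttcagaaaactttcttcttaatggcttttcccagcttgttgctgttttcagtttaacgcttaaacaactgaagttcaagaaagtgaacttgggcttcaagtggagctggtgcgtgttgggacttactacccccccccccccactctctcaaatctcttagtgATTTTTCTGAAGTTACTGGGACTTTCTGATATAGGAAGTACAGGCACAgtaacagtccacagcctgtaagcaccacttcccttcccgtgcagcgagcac
Ms4a6b, chr19:11518309-11518608, plus strand: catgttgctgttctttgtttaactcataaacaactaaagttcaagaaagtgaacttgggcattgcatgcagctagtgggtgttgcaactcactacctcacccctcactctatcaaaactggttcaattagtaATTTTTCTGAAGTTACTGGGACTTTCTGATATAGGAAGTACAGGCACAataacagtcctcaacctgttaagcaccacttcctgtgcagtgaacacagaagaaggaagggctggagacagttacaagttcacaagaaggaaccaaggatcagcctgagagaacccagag

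In a local alignment Ms4a4c and Ms4a4b matched at 159 of 178 positions (89.3%), and Ms4a6c and Ms4a6b at 181 of 215 (84.2%). No other pair had an identical run of more than 9 bases, and the alignments of those 13 pairs covered 7 to 28 positions. The window of Ms4a7, the member with the largest difference from control, is shown with its match to GAGGAA in capitals.
Ms4a7, chr19:11336097-11336396, minus strand: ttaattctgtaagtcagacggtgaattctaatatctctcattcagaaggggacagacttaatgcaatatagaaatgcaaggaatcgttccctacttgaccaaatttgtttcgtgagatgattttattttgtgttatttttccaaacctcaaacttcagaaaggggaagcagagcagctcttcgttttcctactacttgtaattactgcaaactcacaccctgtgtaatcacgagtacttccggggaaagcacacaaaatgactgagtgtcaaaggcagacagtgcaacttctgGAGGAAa

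Each window was searched on both strands for GAGGAA, the core bound by the myeloid and B cell factor PU.1 with its flank, and for AGATAA, a motif of GATA factors. GAGGAA was present once in the first of 2 windows of Ms4a7, at position 43, and once each in Ms4a4c, at position −61, and Ms4a4b, at position −64, counted from the start. It was absent from the windows of Ms4a6c, Ms4a6b and Ms4a2, and 28.3% of all 32851 promoter windows held it. AGATAA was found 3 times in the window of Ms4a2 and in none of the other members, against 11.2% of all windows. These matches describe the letters alone, and no binding was measured.

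**Figure D1:**
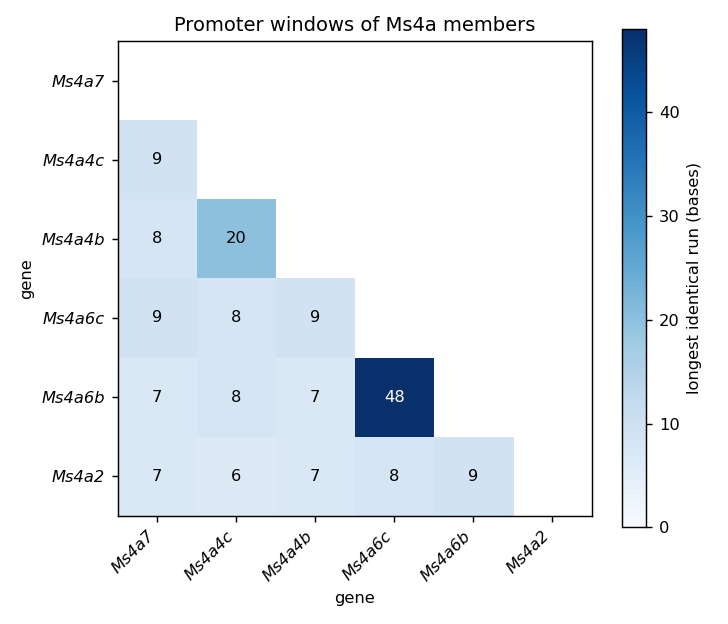
Longest run of identical bases between the promoter windows of 6 Ms4a members, with 1 gene on each axis and the colour and number giving the run in bases. The pairs Ms4a6c with Ms4a6b (48) and Ms4a4c with Ms4a4b (20) stand above all others, which reach at most 9.

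The first question was how the members differed between lungs with 8 weeks of activation and control lungs. The macrophage members Ms4a7 and Ms4a6d were higher at 8 weeks by 5.28-fold and 4.25-fold, and both probe sets of the monocyte member Ms4a4c were also higher in both sexes. The T cell member Ms4a4b was lower on its brighter probe set, by little in females (log2 difference −0.09) and more in males (−0.92). Ms4a6b, Ms4a1 and Ms4a2 overlapped with control.

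Ms4a7 (probe set 1424754_at) had a log2 intensity of 7.49 in the female and 8.29 in the male 8 week pool, 6.05 and 5.99 in the 1 week pools, and 5.44 and 5.55 in the control pools. The groups did not overlap, with 8 weeks highest, 1 week next and control lowest. The mean was 7.89 ± 0.57 at 8 weeks and 5.49 ± 0.08 in control (SD, n = 2 each), a difference of 2.40. The female difference was 2.05 and the male difference 2.75, or 4.15-fold and 6.72-fold. At 1 week against control the difference was 0.53, with 0.62 in females and 0.44 in males. A second, dim probe set (1445365_at) lay at the floor in the 1 week and control pools and at 4.07 and 4.12 in the 8 week pools. It was left out of the tests by the filter on low values.

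Ms4a6d was measured by a pair of probe sets with similar differences at 8 weeks. The brighter one (1419599_s_at, whose suffix marks probes that may also read related transcripts) stood at 8.73 and 8.33 in the female and male 8 week pools, 7.10 and 6.27 in the 1 week pools, and 6.32 and 6.56 in the control pools. The dimmer one (1419598_at) stood at 7.0 and 6.52 in the 8 week pools, 4.46 and 4.12 in the 1 week pools, and 4.70 and 5.02 in the control pools. On both, the 8 week pools lay above all 4 other pools. The difference from control was 2.09 on the brighter (2.41 in females and 1.76 in males) and 1.90 on the dimmer (2.30 and 1.5). At 1 week the probe sets parted, since the brighter overlapped with control while the dimmer was below it in both sexes (−0.24 in females and −0.90 in males). A further probe set of Ms4a6d (1449539_at) was at the floor on all 6 arrays.

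Marker genes of several myeloid cell types stood higher in the same pools. Of 14 macrophage markers, 12 were higher in both sexes and 1 was lower at 8 weeks against control, with a median difference of 1.19 beside 0.08 over the 13215 genes tested. Their summed intensity, without logs, was 19308 and 18472 in the 8 week pools, 13053 and 10201 in the 1 week pools, and 9963 and 11934 in the control pools. In such sums the brightest genes weigh most, here Lyz2 (log2 12.81 and 12.86 at 8 weeks). The 3 markers with the largest differences were the chitinase-like Chil3 (3.89), the alveolar macrophage lectin Siglecf (2.67) and the scavenger receptor Marco (2.17). Chil3 had 6.51 in the female and 9.15 in the male control, so its difference was 5.33 in females and 2.44 in males. Siglecf stood at 3.44 in females and 1.90 in males, and Marco at 2.03 and 2.32. The macrophage receptor Csf1r (0.01) and the efferocytosis kinase Mertk (−0.39) were not higher. Neutrophil markers had a median of 1.42 (7 of 7 kept genes higher in both sexes). Their largest values were those of the collagenase Mmp8 (1.96), the calprotectin subunit S100a9 (1.76) and the gelatinase Mmp9 (1.52). Summed over the 8 on the array, with the dim Camp, intensity was 9521 and 10924 at 8 weeks against 3698 and 3637 in control. The brightest in this sum by far were S100a8 (log2 12.10 and 12.43 at 8 weeks) and S100a9 (11.96 and 11.93). The part of macrophages and neutrophils in the values of Ms4a7 and Ms4a6d was not tested.

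Receptors that work beside MS4A proteins were also read. Clec7a, the fungal glucan receptor Dectin-1, with which human MS4A4A associates, had 10.45 and 10.24 in the 8 week pools and 8.39 and 9.16 in the control pools, a difference of 1.57. Trem2, a lipid receptor of macrophages, had 6.33 and 5.42 in the 8 week pools, while the control pools had the floor value and 4.60. Trem2 was too dim on average for the tests.

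**Figure D2:**
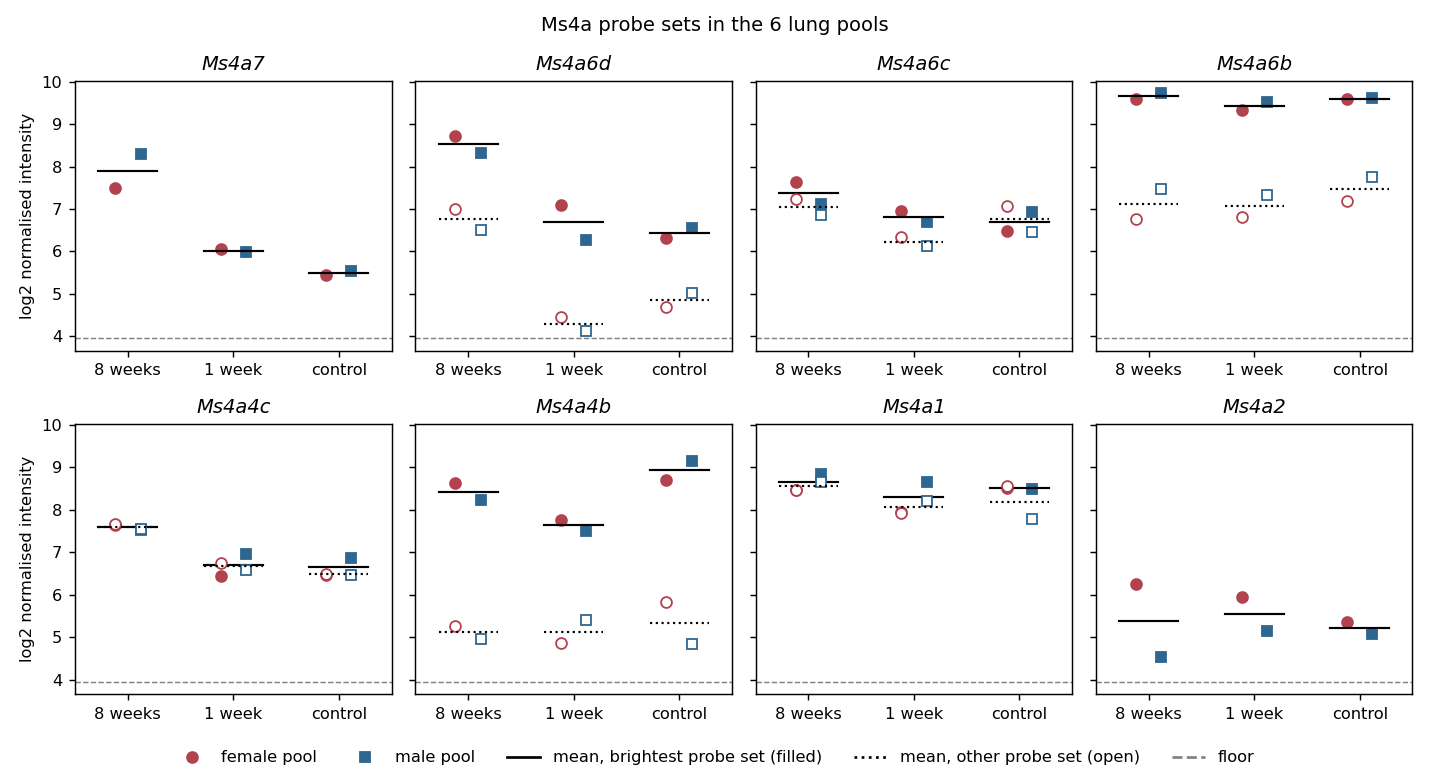
Log2 normalised intensity (vertical axis) of the 14 Ms4a probe sets above the filter in each female and male pool of the 8 week, 1 week and control groups (horizontal axis), 1 panel a gene. Filled symbols are the brightest probe set of a gene and open symbols the other, lines are group means of 2 pools and the dashed line is the floor at 3.95. Ms4a7 and both probe sets of Ms4a6d lie above all other pools at 8 weeks, and the filled Ms4a4b symbols are lowest at 1 week.

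Both probe sets of Ms4a4c carry suffixes that mark possible reading of related transcripts. The brighter (1420671_x_at) had 7.64 and 7.53 in the female and male 8 week pools, 6.44 and 6.95 in the 1 week pools, and 6.47 and 6.85 in the control pools. The other (1450291_s_at) had 7.67 and 7.54 in the 8 week pools, 6.75 and 6.58 in the 1 week pools, and 6.50 and 6.47 in the control pools. The 8 week pools were above all others on both. The differences from control were 0.93 (1.17 in females and 0.68 in males) and 1.12 (1.17 and 1.07), and at 1 week they were 0.04 and 0.18. Whether RNA of Ms4a4c or Ms4a4b bound probes of the other gene was not tested, and their transcripts were not compared. At 8 weeks both Ms4a4c probe sets were above control in both sexes. The brighter Ms4a4b probe set was below control by little in females (−0.09) and more in males (−0.92). The dimmer was below it in females (−0.56) and above it in males (0.13).

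Ms4a6c differed less and less evenly. Its brighter probe set (1450234_at) had 7.64 and 7.11 in the 8 week pools, 6.96 and 6.69 in the 1 week pools, and 6.49 and 6.92 in the control pools. The 8 week and control pools did not overlap, yet the female difference was 1.15 and the male difference 0.19. The other probe set (1457725_at) had 7.24 and 6.86 in the 8 week pools, 6.34 and 6.12 in the 1 week pools, and 7.06 and 6.46 in the control pools. There the 8 week pools overlapped with control, and the 1 week pools were the lowest. Without the female control the difference on the brighter probe set was 0.25, and without the male control it was 1.09.

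Monocyte markers were read beside Ms4a4c and Ms4a6c. Of 6 markers with a probe set of their own above the filter, 5 were higher in both sexes at 8 weeks and none was lower, with a median of 0.75 (0.92 in females and 0.55 in males). The 3 with the largest differences were the IgG receptor Fcgr4 (2.04), the clotting factor subunit F13a1 (0.94) and the chemokine receptor Ccr2 (0.78). Their summed intensity was 2456 and 2739 at 8 weeks against 1462 and 1773 in control. The patrolling monocyte receptor Cx3cr1 stood at 0.04. The part of monocyte number in the Ms4a values was not tested.

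Ms4a4b, which in mouse T cells associates with the costimulatory receptor GITR, was the member with the largest difference at 1 week. Its brighter probe set (1423467_at) had 8.62 and 8.24 in the female and male 8 week pools, 7.76 and 7.51 in the 1 week pools, and 8.71 and 9.15 in the control pools. The 1 week pools were lowest, the 8 week pools between, and the control pools highest, with no overlap. At 1 week the mean was 7.63 ± 0.18, against 8.93 ± 0.31 in control (SD, n = 2 each), a difference of −1.30 (−0.95 in females and −1.64 in males). That is a level 2.46-fold higher in control. At 8 weeks the difference from control was −0.50, with −0.09 in females and −0.92 in males, and against 1 week the 8 week pools stood 0.80 higher. A dim second probe set (1425325_at) had 4.87 and 5.40 at 1 week and 5.83 and 4.83 in control, and its female and male differences had opposite signs.

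The median of the T cell markers was below 0 at 1 week, by less than Ms4a4b. Of 11 above the filter, 5 were lower and 1 was higher in both sexes, with a median of −0.28 (−0.38 in females and −0.05 in males) beside 0.03 over all genes. Summed over the 12 on the array, with the dim Cd4, intensity was 1550 and 1426 in the 1 week pools. In the control pools the sum was 2052 and 1543, so the male pools differed little. Without the female 1 week pool the list's median was −0.05, while Ms4a4b stood at −1.44. At 8 weeks 7 T cell markers were higher and 1, the cytokine receptor Il7r (−0.34), was lower in both sexes. The largest values were those of the receptor subunits Cd3d (0.63) and Cd247 (0.49) and of the surface receptor Cd6 (0.61). The list's median was 0.32, but 0.06 on the values as deposited, and 0.16 without the female 8 week pool to 0.48 without the female control. Tnfrsf18, which encodes GITR, had 7.22 and 6.86 at 8 weeks, 6.25 and 6.46 at 1 week, and 6.83 and 5.95 in control. NK cell markers had medians of 0.05 at 8 weeks and 0.20 at 1 week, with the granzyme Gzma (0.73), Klre1 (0.26) and Klrd1 (−0.18) largest in size at 8 weeks.

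Ms4a6b, the other member of T cells, hardly differed on its brighter probe set (1418826_at). It had 9.60 and 9.73 in the 8 week pools, 9.33 and 9.53 in the 1 week pools, and 9.59 and 9.61 in the control pools. The difference from control was 0.07 at 8 weeks and −0.17 at 1 week. On the dimmer probe set (1439956_at) it was −0.36 and −0.40, lower in both sexes at both durations, while the pools of the groups overlapped. On the brighter probe sets, Ms4a6b stood near control where Ms4a6c, with which it shares the 48 bases above, was higher in 8 week females. On the dimmer probe sets the 8 week females differed from control by −0.43 for Ms4a6b and 0.18 for Ms4a6c.

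**Figure D3:**
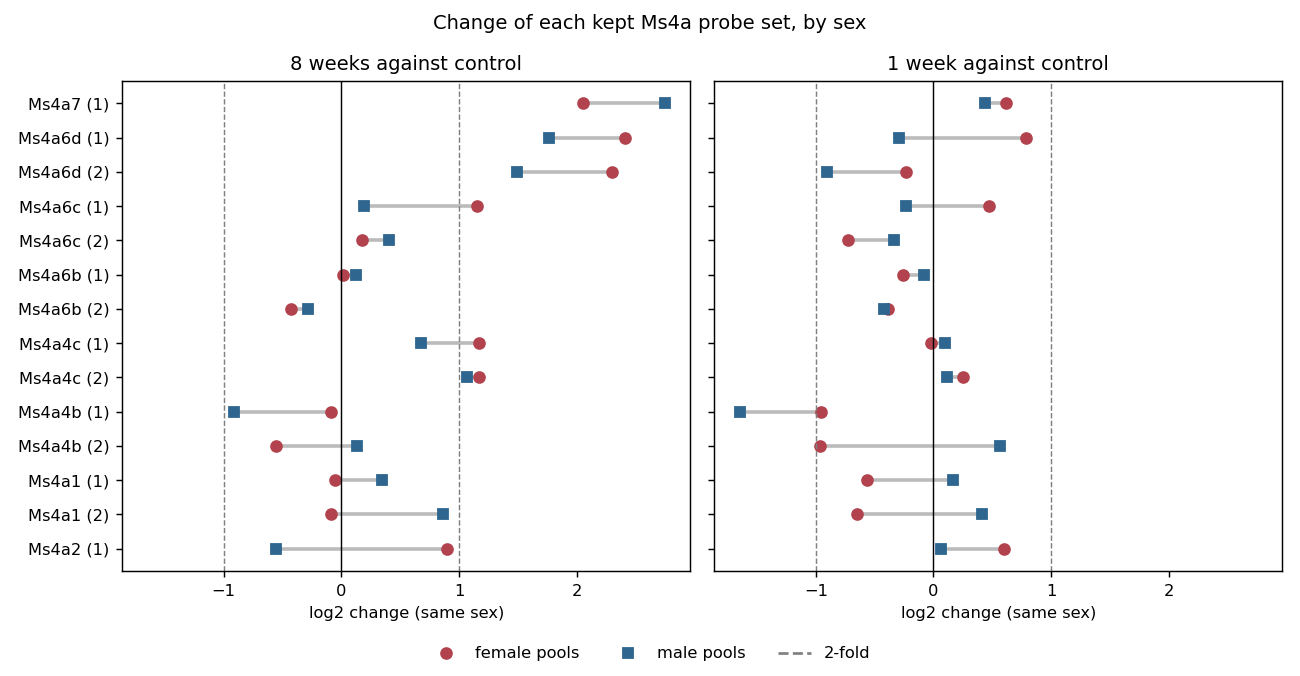
Log2 change (horizontal axis) of each Ms4a probe set above the filter (vertical axis, numbered by brightness within a gene) at 8 weeks and at 1 week against control, each female pool set against the female control and each male pool against the male control. Dashed lines mark 2-fold. At 8 weeks Ms4a7, both Ms4a6d probe sets and the second of Ms4a4c lie past 2-fold in both sexes.

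Ms4a1, the CD20 gene, overlapped between 8 week and control pools on both probe sets. The brighter (1450912_at) had 8.46 and 8.84 in the female and male 8 week pools, 7.95 and 8.66 in the 1 week pools, and 8.51 and 8.49 in the control pools. The other (1423226_at) had 8.48 and 8.65, 7.91 and 8.20, and 8.57 and 7.79 in the same order. On both, females were below and males above their own control at both durations. B cell markers showed the same split at 1 week, with a median of −0.57 in females and 0.33 in males, and at 8 weeks with −0.09 and 0.58. Of 10 B cell markers, 3 were higher and 1 was lower in both sexes at 8 weeks. The largest values were those of the B cell receptor subunits Cd79a (0.52) and Cd79b (0.52) and of Fcrla (0.47). The summed intensity of the list was 2594 and 2355 at 8 weeks, 1800 and 2082 at 1 week, and 2691 and 1502 in control, so the female control had the highest and the male control the lowest sum. With the B cell receptor and coreceptor genes alone (Cd79a, Cd79b, Cd81 and Cr2), the median was 0.19 at 8 weeks.

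Ms4a2 was near the limit of detection. Its brighter probe set (1443264_at) had 6.25 and 4.53 in the female and male 8 week pools, 5.95 and 5.14 in the 1 week pools, and 5.35 and 5.08 in the control pools. The 8 week pools spanned the whole range of the gene, so the difference of 0.17 was far below their SD of 1.22. The other probe set (1421475_at) was at the floor on 3 of 6 arrays and was not tested. Fcer1a, the IgE-binding chain of the same receptor, was at the floor on 5 of 6 arrays. The signalling chain Fcer1g, which myeloid cells also use with Fc gamma receptors, had 10.18 and 9.88 at 8 weeks and 8.93 and 8.94 in control. Syk, the kinase downstream of it, had 8.89 and 8.92 at 8 weeks and 8.53 and 7.84 in control. Of 11 mast cell markers 5 passed the filter, and at 8 weeks 2 were higher and 1 was lower in both sexes. The proteases Mcpt4 (0.72) and Cma1 (0.68) and the histamine-forming enzyme Hdc (0.54) were largest, while the transcription factor Gata2 (−0.46) and the receptor Kit (−0.09) were below 0. Mcpt4 stood at 1.6 in females and −0.16 in males. The median of the list was 0.54, but 0.16 within females and 0.03 within males. It was 0.02 without the female control, 0.33 without the male control, 0.37 without the female 8 week pool and 0.18 without the male 8 week pool. The mast cell markers Hpgds and Mrgprb1 were at the floor on all arrays, and of 4 basophil markers 3 were on the array and 0 passed the filter.

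Of the 17 member probe sets, 14 passed the filter, at least 1 for each gene, and these counts cover those 14. At 8 weeks against control, 4 were at least 2-fold higher in both sexes, where 0.918% of all 27022 tested probe sets were, and 0 were 2-fold lower (1.79% of all). The 4 were those of Ms4a7, both of Ms4a6d and the second of Ms4a4c. In 6 the 8 week pools lay wholly above the control pools (23.0% of all) and in 1 wholly below (18.8%). In limma's moderated test with Benjamini-Hochberg adjustment 1 passed, that of Ms4a7, where 0.596% of all did. At 1 week 0 were 2-fold higher (0.0888%) or 2-fold lower (0.0518%) in both sexes, 2 lay wholly above control (12.5%) and 4 wholly below (11.1%). At 8 weeks against 1 week, 3 were 2-fold higher in both sexes (0.759%) and 0 were 2-fold lower (1.25%), 10 lay wholly above (20.7%) and 0 wholly below (17.7%). In limma 0 passed in either of those comparisons, as for all probe sets (0%). An unadjusted p below 0.05 in limma was found at 8 weeks against control for 6 of the 14 member probe sets and 6216 of all 27022. At 1 week it was found for 3 member probe sets and 1486 of all. At 8 weeks against 1 week it was found for 7 member probe sets and 5000 of all. These contrasts were known when the members were chosen, so nothing is read from the counts. Over the brightest probe sets of the 8 genes the median difference from control was 0.42 at 8 weeks (0.08 over all genes) and 0.08 at 1 week (0.03).

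**Figure D4:**
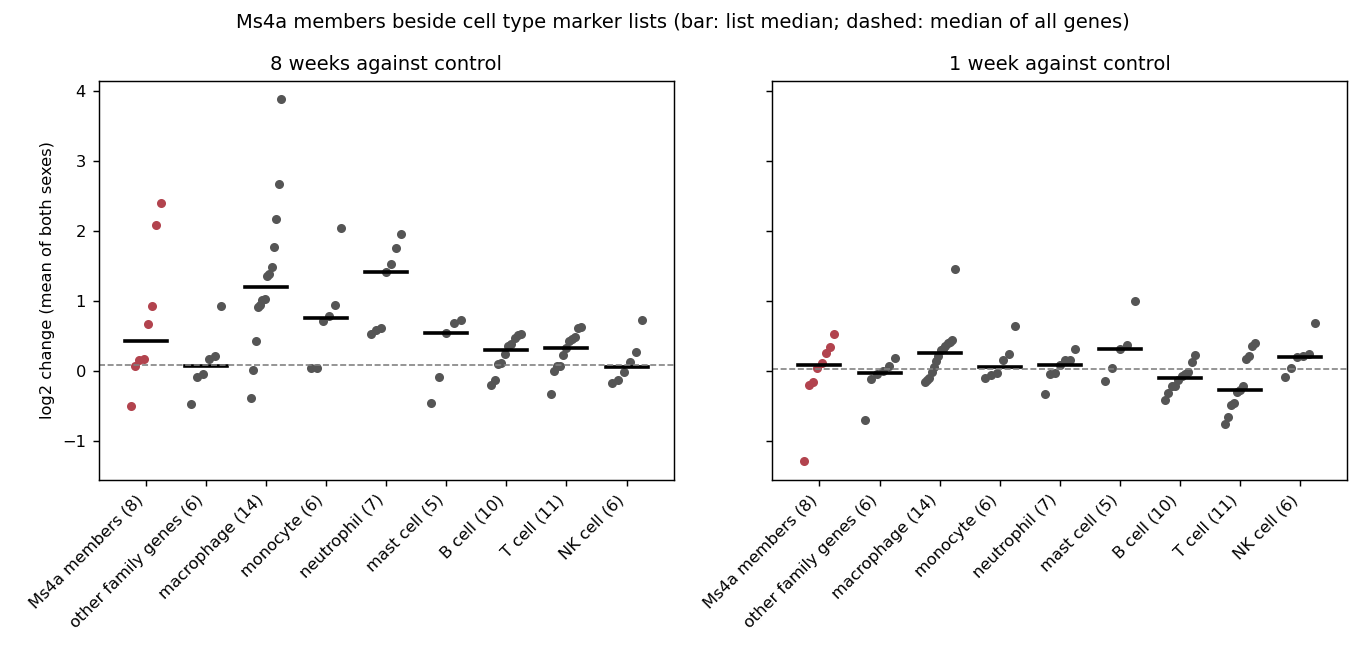
Log2 change against control, as the mean of both sexes (vertical axis), of the 8 Ms4a members and of the genes of each marker list above the filter (number in brackets), at 8 weeks and at 1 week. Each point is the brightest probe set of a gene, bars are list medians and the dashed line is the median of all genes. Ms4a7 (2.40) and Ms4a6d (2.09) lie within the range of the macrophage markers and above every neutrophil marker at 8 weeks, and Ms4a4b (−1.30) lies below every T cell marker at 1 week.

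Other genes of the family were read in the same way. Of 14 further names, which included the related Tmem176a and Tmem176b, 9 were on the array and 6 passed the filter, with a median of 0.06 at 8 weeks. At 8 weeks 2 were higher and 2 lower in both sexes, and 0 passed in limma. Ms4a8a had 6.20 and 5.74 in the female and male 8 week pools, 4.99 and 4.84 in the 1 week pools, and 4.59 and 5.49 in the control pools. Its difference of 0.93 at 8 weeks came with 1.62 in females and 0.25 in males. Ms4a4d, which lies between Ms4a6b and Ms4a6d in the cluster, had 10.04 and 10.26 at 8 weeks, 9.98 and 9.86 at 1 week, and 10.52 and 10.74 in control. Both transgenic groups lay below control, by 0.48 at 8 weeks and 0.71 at 1 week in size (log2 differences of −0.48 and −0.71). Tmem176a stood at 0.21 at 8 weeks on its brightest probe set, and at −0.07 and 0.45 on the others.

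The genes with the most similar profiles were found by the mean absolute difference between centred log2 profiles over the 6 arrays, among 6282 probe sets with a range of at least 1. For Ms4a7 they were Wfdc21 (0.16), the complement regulator properdin (Cfp, 0.20) and the peptide transporter Slc15a3 (0.26). For Ms4a6d they were the chemokine Ccl6 (0.10), the chitinase-like Chil1 (0.14) and the cytokine receptor subunit Csf2rb (0.15). For Ms4a4c they were the myeloid receptor Trem3 (0.06), Vwa1 (0.08) and the RNA sensor Tlr13 (0.08). For Ms4a6c they were Prss55 (0.03), Rom1 (0.06) and Abhd5 (0.06). For Ms4a4b they were Cntn1 (0.18), Kazn (0.20) and H3f3b (0.22), none of them a T cell marker of the list. For Ms4a6b they were Nqo2 (0.15), Gabarapl2 (0.16) and Tnfrsf13b (0.16), with Nqo2 (0.06) also named for Ms4a1 beside Angpt2 (0.06) and Sec1 (0.07). The ranges of Ms4a6b (0.39) and Ms4a1 (0.90) were themselves below 1. Genes as flat as these members were not searched, so closer profiles may have been left out. For Ms4a2 they were Adcy7 (0.08), Abhd12 (0.10) and Prf1 (0.11). With 6 arrays such matches are a description of these pools.

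Female against male pools was the comparison that the choice of members left free. In the control group, sex went with the labelled genotype, FVB/N or SM22-rtTA only, and these cannot be told apart there. The dimmer probe set of Ms4a6b (1439956_at) passed, with female and male values of 6.76 and 7.47 at 8 weeks, 6.80 and 7.34 at 1 week, and 7.19 and 7.76 in control. It was lower in females in all 3 groups, by a fitted log2 difference of −0.61 ± 0.11 (SE, adjusted p = 0.0444 in limma). This was 1 of 14 member probe sets, where 8.30% of all tested probe sets passed. The brighter Ms4a6b probe set gave −0.11 ± 0.11 (adjusted p = 0.523 in limma), so the gene's 2 probe sets did not show the same difference. It was also lost on the values as deposited, with arrays centred on their medians, without the filter on dim probe sets, with least squares, and on leaving out any 1 array. Next by p came Ms4a2 (0.94 ± 0.29, adjusted p = 0.119 in limma) and the second Ms4a6c probe set (0.40 ± 0.13, adjusted p = 0.122 in limma). Both were higher in females in all 3 groups and did not pass.

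**Figure D5:**
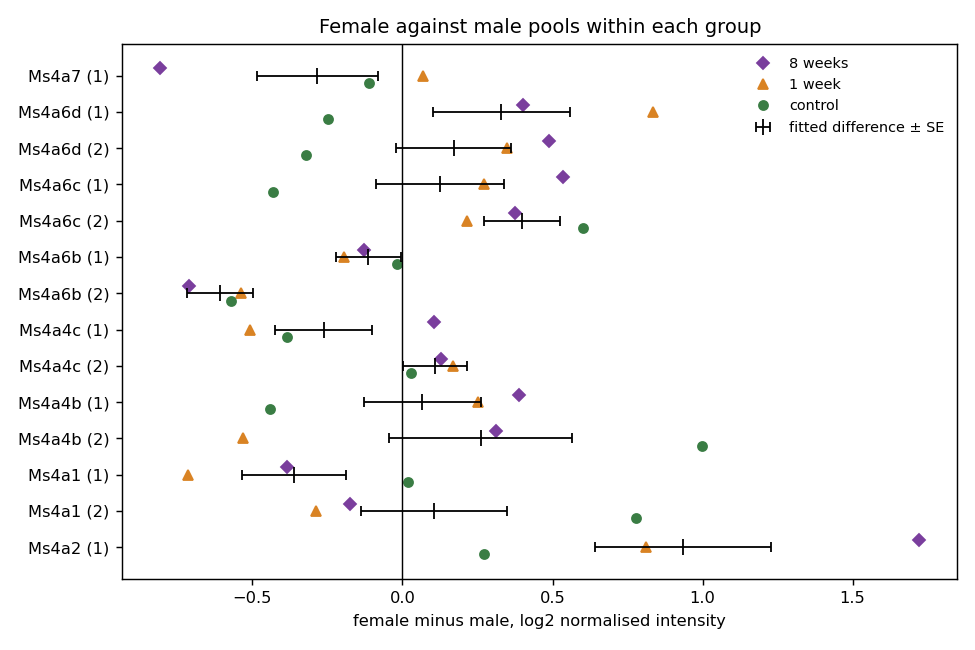
Female minus male log2 normalised intensity (horizontal axis) of each Ms4a probe set above the filter (vertical axis, numbered by brightness within a gene) in the 8 week, 1 week and control groups, with the fitted difference ± SE. The second Ms4a6b probe set lies between −0.71 and −0.54 in all 3 groups.

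Whether the transgene's effect differed between the sexes was asked with both durations together. The fit had no term for duration, so differences between the durations within a sex counted as error. The male control was labelled SM22-rtTA only and the female control FVB/N. Sex and the genotype of the controls therefore cannot be told apart in this comparison. The interaction passed for 0 of 14 member probe sets and for 0% of all in limma, with 636 probe sets and 0 members below an unadjusted p of 0.05. The smallest adjusted p was 1. The estimates nearest to passing were those of the dim Ms4a4b probe set (−1.11 ± 0.44) and of Ms4a2 (0.99 ± 0.48). For Ms4a6d the SE was 1.54 on the brighter and 2.04 on the dimmer probe set. In the fit with group and sex these were 0.28 and 0.235 at 8 weeks against control. For members that differed between the durations the interaction could hardly pass, so it cannot decide the question for them.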

How the data were processed

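The authors deposited signal intensity values on a linear scale (10 to 11513.01), 1 column for each of 6 arrays. Their summarising and scaling of probe signals is not given in the sources used here. Labelling used biotin, per the labels' protocols. From the deposited intensity values, arrays were quantile normalised, values under the 20th percentile were set to it, and the log2 values were used. The 27022 probe sets with a mean above the 40th percentile were tested with limma 3.58.1 (R 4.3.3) in a model with group and sex (2 residual degrees of freedom, prior 2.77), or with transgene, sex and their interaction (prior 2.48). P-values were adjusted over all of them and passed below 0.05. The model was tested on simulated data. The number of arrays limits the precision. No group held 2 pools of the same sex, so the spread between like pools was not estimated. The p-values of the group and sex model rest on how unequally the groups differed in females and males. Those of the interaction model rest on how far the durations differed within each sex.

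The members and lists were chosen with earlier results of these data known. All members were named, with 3 genes for each list by size at 8 weeks, Csf1r, Mertk, Cx3cr1, Il7r, Gata2, Kit and the partner genes named after their values were seen, and 3 genes most like each member. A gene stands at its brightest probe set. Alternatives were other scalings, floors, filters, variance settings and folds, and leaving out each array. Symbols came from the platform annotation (34945 probe sets with 1 symbol, 932 with several, 9160 with none). Promoters came from RefSeq (GRCm38.p6), and alignments from Biopython 1.88. Plots were drawn with matplotlib 3.10.9.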

Additional observations from a re-analysis of the deposited data

Results flagged for a closer look

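For 3 of the 14 member probe sets the female pools moved one way from control at both durations and the male pools the other way, which 16.8% of all tested probe sets also did. For Ms4a1 the interaction between transgene and sex was −0.57 ± 0.42 on the brighter probe set and −1.01 ± 0.50 on the other, and for the dim Ms4a4b probe set it was −1.11 ± 0.44 (log2, SE). The female and male controls differed in labelled genotype too, so sex and control genotype cannot be told apart here. Differences between the durations within a sex counted as error in the interaction fit. Females stood lower and males higher than their controls on each of the 3 probe sets. The difference was tested, and the adjusted p was 1 for all 3 in limma.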

How the results depend on the processing

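The count of member probe sets past the adjusted p at 8 weeks against control was 1 as reported, where 161 of all 27022 passed. It was 4 with arrays centred on their medians (705 of all), with the floor at the 40th percentile (439) or with log2(value + 16) (583). It was 2 when the filter was set at the 60th percentile (505 of 18015) and 5 with trend and robust variances (1916). It was 0 with no filter, without the sex term, with least squares or with only the arrays compared. On leaving out each array it was 0 to 3, with 3 without the male 8 week pool (1071 of all) and 0 without any other. Under each setting named with 0 members at 8 weeks against control, 0 of all probe sets passed too. At 8 weeks against 1 week it was 4 with trend and robust variances (752 of all), against 0 as reported. For female against male it was 0, against 1 as reported, on the values as deposited (2101 of all) or with arrays centred (2429). It was also 0 with no filter or with least squares, where 0 of all passed, and 0 to 0 on leaving out each array, where 0 to 1279 of all passed. The counts of probe sets 2-fold different in both sexes were 2 and 1 under the 60th percentile filter for 8 weeks against control and against 1 week, against 4 and 3, where fewer probe sets were tested. With 1.5-fold in place of 2-fold they were 1 at 1 week and 6 at 8 weeks against 1 week. Other causes were not tested.

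The 8 week difference of Ms4a7 was 2.01 to 2.79 on leaving out each array and that of Ms4a6d 1.65 to 2.52. As means over all probe sets of the gene, which include those at the floor, they were 1.27 and 1.33. The 1 week difference of Ms4a4b was −1.68 to −0.92 on leaving out each array and −0.75 as the mean of its probe sets. The 8 week difference of Ms4a7, Ms4a6d and Ms4a4c kept its sign under every alternative run. Of 352 recomputed member values, 37 moved by at least 1 SD and 26 had another sign. The SD was that between the sexes, or that between the groups for female against male. Centring arrays on their medians put the median of all genes at 0.20 at 8 weeks, against 0.08 as reported and −0.08 as deposited. Signal over background limits Ms4a2, the second Ms4a7 probe set and the dim Ms4a4b probe set.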
